A study of Homo sapiens with 24 samples.

Results

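Genes of mitochondrial fusion, fission and mitophagy were followed through loss of mitochondrial DNA (mtDNA) in human cells. The 10 genes were MFN1, MFN2, OPA1, OMA1, DNM1L, FIS1, MFF, PINK1, BNIP3L and FUNDC1, out of 19775 genes on the microarray. A member was every probe set whose only gene symbol in the platform annotation was one of these, which gave 24 of 41091 probe sets with a single symbol. No expression value entered that choice. Of the 24, 22 were bright enough to be tested in the HEK293 arrays and 21 in the 143B arrays, and each of the 10 genes kept at least 1 tested probe set.

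The samples were cultures of 2 human lines, 3 replicate cultures per group and 24 arrays in all. DN-POLG cells are HEK293 cells, an embryonic kidney line, in which doxycycline turns on a dominant-negative form of POLG, the polymerase that copies mtDNA. They were collected without induction (day 0) and after 3, 6 and 9 days of doxycycline. AOX/NDI1 cells carry the same transgene and also express an alternative oxidase and a yeast NADH dehydrogenase, which can oxidise NADH without the cell's own respiratory chain, and were collected at day 0 and at day 9 of doxycycline. No cells with doxycycline and without the transgene were analysed here, so the drug and the transgene cannot be told apart. Flasks were pooled at the later days, and the p-values measure the spread between these cultures. The 143B rho0 cells, an osteosarcoma derivative left without mtDNA by ethidium bromide, were set against the parental 143B rho+ cells. Each of these is a single line, so loss of mtDNA and other differences between the lines cannot be told apart. Uridine and pyruvate were in the medium of every group.

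Mitochondria form a network that is joined by fusion and cut by fission. The mitofusins MFN1 and MFN2 fuse the outer membrane and OPA1 fuses the inner one, while the protease OMA1 cleaves OPA1 when mitochondria are stressed. DNM1L, also called DRP1, is the dynamin that constricts mitochondria, and it is recruited from the cytosol by outer membrane proteins such as MFF, with FIS1 as a further outer membrane member of the fission machinery. In mitophagy damaged mitochondria are handed to autophagosomes, either through the kinase PINK1 and ubiquitin or through outer membrane receptors such as BNIP3L (NIX) and FUNDC1 that bind LC3 proteins directly. Much of this machinery is controlled on the protein, by cleavage, phosphorylation and recruitment, which a microarray of mRNA does not see.

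The labels were checked first. The POLG probe set 217635_s_at was higher by a log2 of 3.54 at day 9 in DN-POLG cells and by 2.76 in AOX/NDI1 cells, and the mtDNA transcripts ATP6, COX2 and ND6 fell in both, with a log2 fold change of -2.53 for ND6 in DN-POLG cells. Other mtDNA probe sets did not pass in either, such as that of COX1 (-0.16 and 0.03) and those of ND2, ND4 and COX3, and neither did the second POLG probe set 203366_at (0.23 and 0.38). In 143B rho0 cells the log2 fold changes of mtDNA genes ran from -7.62 for ND4 to -11.67 for COX2. Of the line markers, 3 of 7 HEK293 genes (LIN28B, NEFL and SALL2) lay higher in all HEK293 arrays than in any 143B array, 2 of 8 genes of the 143B list (CD44 and RUNX2) did the opposite, and the others overlapped. The ratio of the 3′ to the 5′ probe set of ACTB, which rises with RNA degradation or shortened cDNA, was 1.05 to 1.81 in 17 HEK293 arrays, 8.92 in replicate 1 of DN-POLG day 6, and 5.53 to 17.1 in the 6 arrays of 143B cells. Replicate 1 of DN-POLG day 6 also stood apart among the 10 genes: it was the lowest of the 18 HEK293 arrays in 11 of the 22 tested probe sets and the highest in 2.

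**Figure D1:**
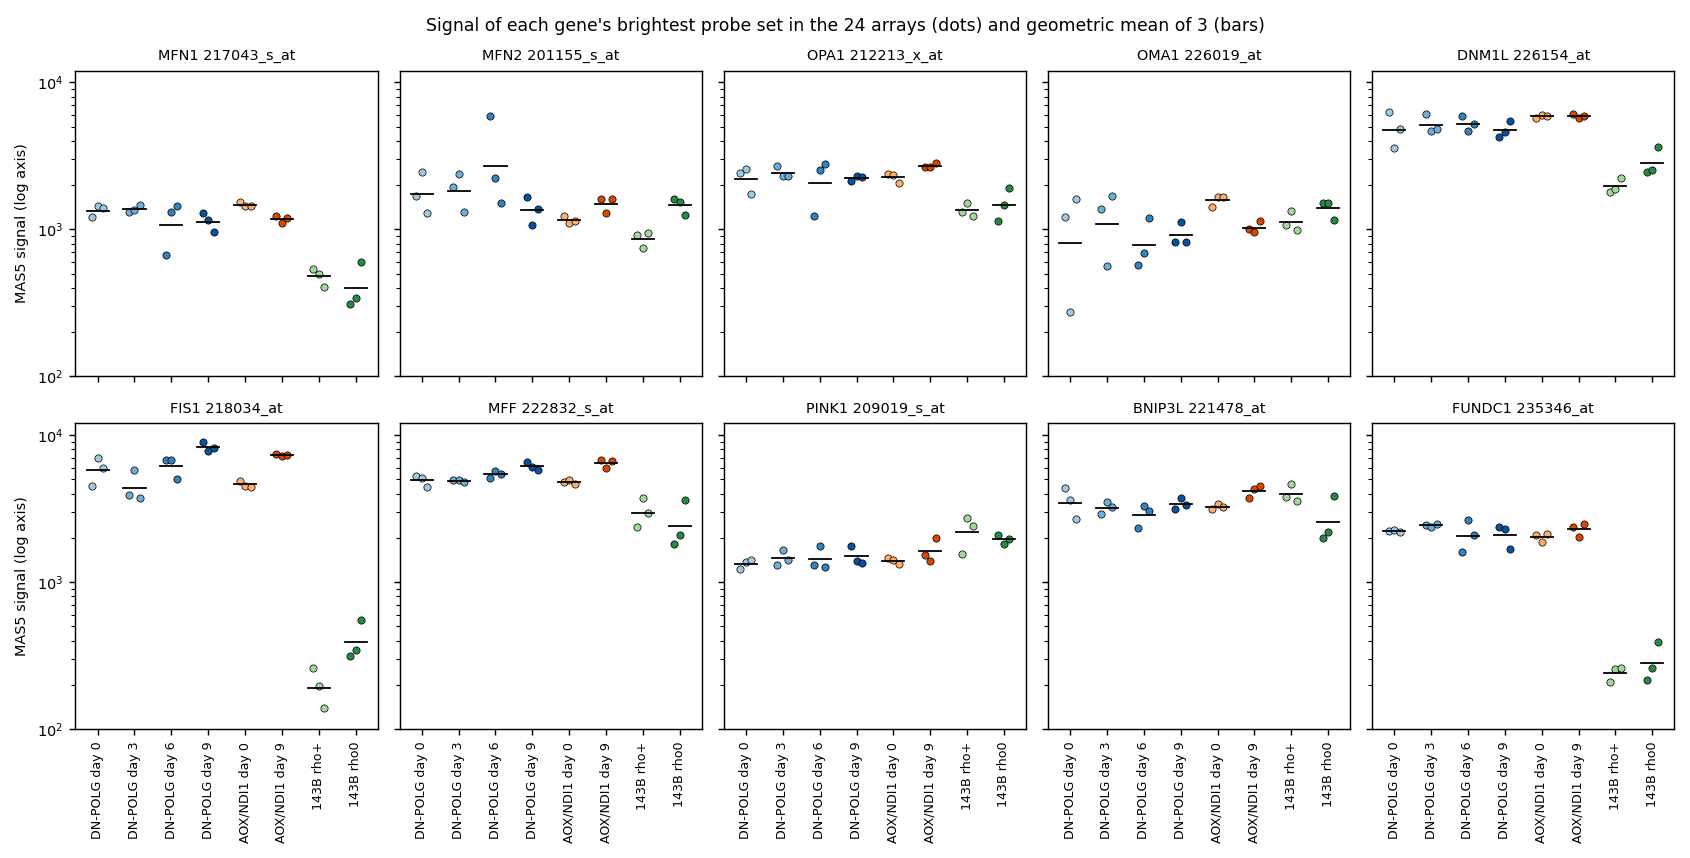
MAS5 signal (log axis) of the brightest probe set of each of the 10 genes in the 24 arrays, by group; dots are arrays and bars the geometric mean of 3. FIS1 and FUNDC1 lay far lower in the 6 arrays of 143B cells than in the 18 HEK293 arrays, and FIS1 was highest at day 9 in both HEK293 series.

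At day 9 of mtDNA depletion none of the 10 genes passed the test in DN-POLG cells, where 13.1% of all 12104 genes tested did. A probe set passed when its Benjamini-Hochberg adjusted p over all tested probe sets of the line was under 0.05 in limma, and a gene passed when any of its probe sets did. At an unadjusted p under 0.05, 2 of the 22 member probe sets were past the threshold, 1 of FIS1 and 1 of OPA1, beside 4924 of all 23132. The median log2 fold change over the 22 member probe sets was 0.07, against 0.01 over all tested probe sets, and the median size of the change regardless of sign was 0.21 against 0.33. The 95% interval of a member probe set, not adjusted for the number of tests, typically reached 0.51 to either side of the fold change. A change below about that size was typically not detectable, and the adjusted threshold was stricter: FIS1, at 0.53, did not pass it. In bulk RNA, fewer cells with a transcript and less of it per cell cannot be told apart.

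FIS1 was the member nearest to a change over the time course. Uninduced DN-POLG cultures had FIS1 signals of 4529.7, 6971 and 6000.5. After 3 days of doxycycline they were 3878, 5769 and 3739, after 6 days 6805, 6750.1 and 4986, and after 9 days 8999.8, 7755 and 8221. The day 9 arrays lay above every array of the earlier days, and the first 3 time points overlapped each other. From day 0 to day 9 the log2 fold change was 0.53 (standard error 0.21, 95% interval 0.08 to 0.98, adjusted p = 0.149). From day 3 to day 9 FIS1 rose by 0.93 on the log2 scale, a 1.90-fold difference (standard error 0.21, adjusted p = 0.00975). That comparison and the others between later days were added after the data had been seen, and 17.2% of all genes passed in it. The call was lost without replicate 1 of day 3 (adjusted p = 0.0530) or without replicate 3 of day 3 (adjusted p = 0.0577).

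In AOX/NDI1 cells FIS1 was also higher at day 9. Its signal was 4889, 4531 and 4441 at day 0 and 7390.3, 7243 and 7356 at day 9, so the groups did not overlap. The share of all probe sets that were apart between day 0 and day 9, or between rho+ and rho0 cells, is not given. Here and below, a lack of overlap in those comparisons therefore describes the arrays and is not a test of change. The log2 fold change of FIS1 was 0.67 (standard error 0.21, 95% interval 0.22 to 1.12), with an adjusted p of 0.0523 that just missed the threshold. Because the 18 HEK293 arrays share one estimate of the spread, leaving out an array of another group could move this call: FIS1 passed without replicate 1 or 2 of DN-POLG day 0, replicate 2 of DN-POLG day 3 or replicate 1 or 3 of DN-POLG day 6, with adjusted p values of 0.0342 to 0.0443. Over all 29 other settings the adjusted p ran from 0.000423 to 0.163, and FIS1 passed in 13. In these cells the ACTB ratio was 1.14 to 1.18 without doxycycline and 1.27 to 1.52 after 9 days, and its part in the result was not tested.

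Across all 8 groups FIS1 was ordered DN-POLG day 9, AOX/NDI1 day 9, DN-POLG day 6, DN-POLG day 0, AOX/NDI1 day 0, DN-POLG day 3, 143B rho0 and 143B rho+. In that order DN-POLG day 6 overlapped DN-POLG day 0, DN-POLG day 0 overlapped AOX/NDI1 day 0, and AOX/NDI1 day 0 overlapped DN-POLG day 3, while the other neighbours were apart. AOX/NDI1 and DN-POLG cells at day 9 differed by a log2 of -0.18 (95% interval -0.63 to 0.27, adjusted p = 1.00), although their arrays did not overlap. Over the 18 HEK293 arrays the probe sets of other genes most like FIS1 were those of ATP5MC2 (Pearson r = 0.94), the tubulin folding cofactor TBCB (0.94) and ATP5MG (0.94). ATP5MC2 and ATP5MG encode subunits of the mitochondrial ATP synthase. These correlations share the same cultures and time points and are given as a description of the arrays.

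The only member that passed in AOX/NDI1 cells at day 9 was OPA1, through 1 of its 4 probe sets, where 18.1% of all genes passed. The signal of 241027_at was 42.9, 43.9 and 9.27 at day 0 and 112, 215 and 123 at day 9, and the groups did not overlap. The log2 fold change was 2.47 (standard error 0.54, adjusted p = 0.00746). It was 1.73 without replicate 3 of day 0, the array with the signal of 9.27 (adjusted p = 0.0384). Every day 0 signal lay under the level of 57.2 that the mean of a probe set had to reach in HEK293 arrays, so the size of the change is uncertain, and the probe set entered the test through the groups where it was high. In DN-POLG cells the same probe set had signals of 62.2, 53.7 and 26.5 at day 0 and 97.6, 91.8 and 189.8 at day 9, again without overlap, and it was 1.42 higher on the log2 scale at day 9 (adjusted p = 0.132).

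None of the other OPA1 probe sets passed, although all had fold changes above 0 in AOX/NDI1 cells. The brightest, 212213_x_at, had signals of 2362, 2335 and 2074 at day 0 and 2652, 2668 and 2811 at day 9 in AOX/NDI1 cells, which did not overlap. Its log2 fold change was 0.27 (95% interval -0.27 to 0.80, adjusted p = 0.550), and those of 212214_at and 214306_at were 0.05 and 0.19. In DN-POLG cells at day 9 the changes of these 3 probe sets were 0.02, -0.27 and 0.14.

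**Figure D2:**
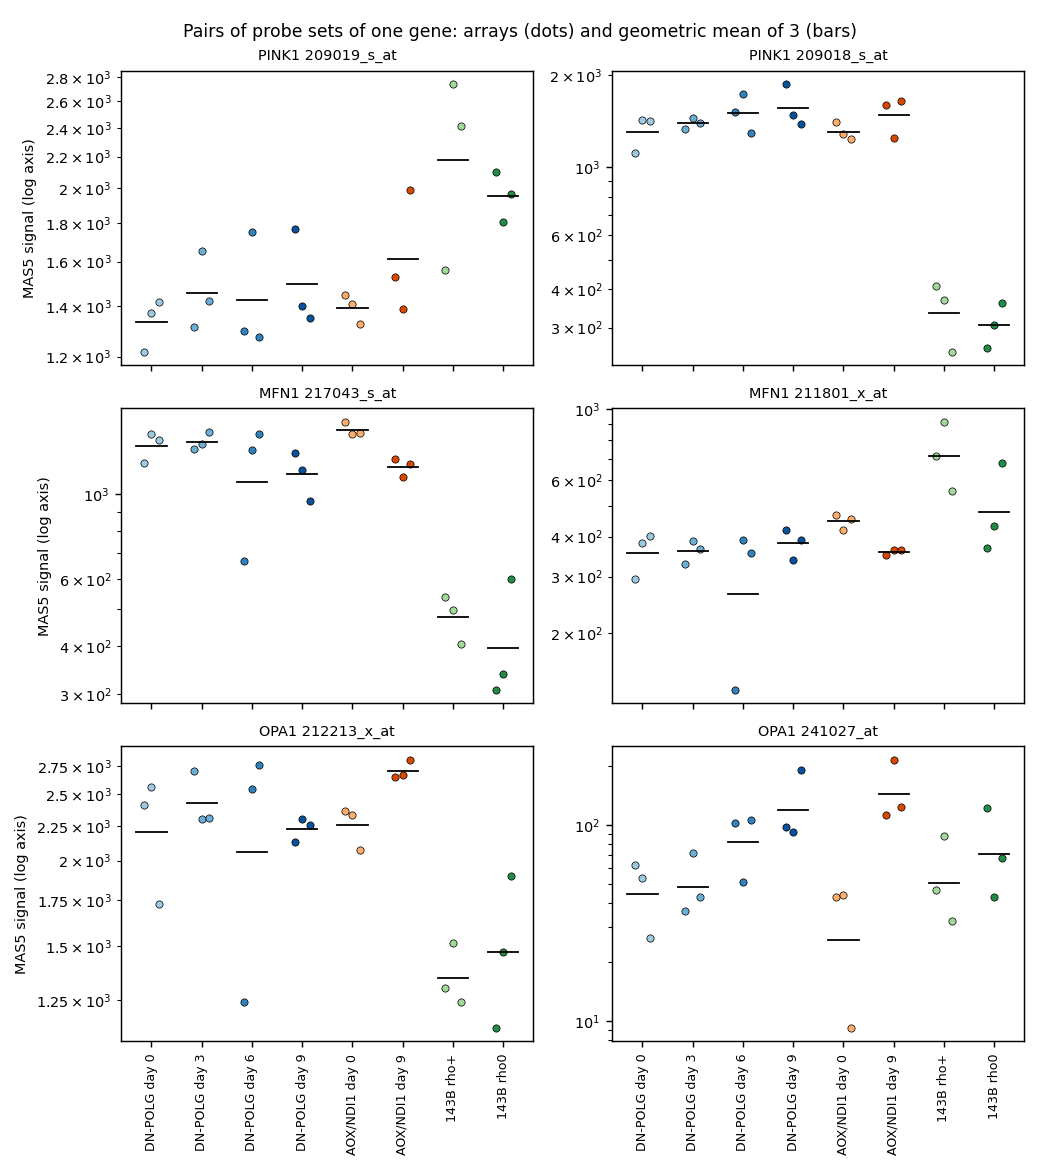
MAS5 signal (log axis) of pairs of probe sets of PINK1, MFN1 and OPA1 in the 24 arrays, by group, each panel with its own axis; dots are arrays and bars the geometric mean of 3. PINK1 209018_s_at was lower and 209019_s_at higher in 143B rho+ than in DN-POLG day 0 cells, MFN1 shows a like split, and OPA1 241027_at differed between day 0 and day 9 where 212213_x_at overlapped in DN-POLG cells.

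Among the other fusion genes, the mitofusins showed no called change at day 9. The brightest MFN1 probe set, 217043_s_at, had signals of 1543, 1438 and 1443 at day 0 and 1233, 1109 and 1197 at day 9 in AOX/NDI1 cells, with no overlap and a log2 fold change of -0.32 (95% interval -0.83 to 0.18, adjusted p = 0.424). In DN-POLG cells its change was -0.25 (adjusted p = 0.621). Of the 3 MFN1 probe sets, 2 were lower there and 211801_x_at was higher, by 0.10. In AOX/NDI1 cells all 3 were lower, by -0.39 to -0.31. The brightest MFN2 probe set, 201155_s_at, had a log2 fold change of 0.37 in AOX/NDI1 and -0.38 in DN-POLG cells, with adjusted p of 0.601 and 0.650. Its AOX/NDI1 signals were apart, 1240.1, 1112 and 1130.5 at day 0 and 1613, 1289.8 and 1604 at day 9, while those of DN-POLG cells overlapped. The other tested MFN2 probe set, 216205_s_at, gave -0.22 in AOX/NDI1 and -0.36 in DN-POLG cells, so the MFN2 probe sets disagreed in AOX/NDI1 cells. OMA1 was uneven among replicates, with signals of 1207, 272 and 1598 in DN-POLG cells at day 0 and 825, 1123 and 814 at day 9. In AOX/NDI1 cells, where replicates were closer, OMA1 had signals of 1427, 1658 and 1666 at day 0 and 1001, 959.6 and 1131 at day 9, a log2 fold change of -0.62 (95% interval -1.73 to 0.48, adjusted p = 0.490).

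DNM1L and MFF, like FIS1, did not pass at day 9 against day 0. The brightest DNM1L probe set, 226154_at, had a log2 fold change of -0.01 (95% interval -0.45 to 0.42) in DN-POLG and 0.01 (-0.43 to 0.45) in AOX/NDI1 cells at day 9. The brightest MFF probe set, 222832_s_at, had signals of 5300.5, 5136 and 4436 at day 0 and 6511, 6089.9 and 5753 at day 9 in DN-POLG cells. In AOX/NDI1 cells they were 4814, 4952 and 4615 at day 0 and 6776, 5932 and 6607 at day 9. Neither pair of groups overlapped, and the log2 fold changes were 0.31 (adjusted p = 0.267) and 0.42 (95% interval 0.10 to 0.75, adjusted p = 0.0861). The second of these passed without replicate 1 of DN-POLG day 6 (adjusted p = 0.0409). The other 3 MFF probe sets were split in direction in AOX/NDI1 cells, where they gave -0.25, -0.07 and 0.13. The groups also did not overlap there for 219137_s_at, which was lower (-0.25), and for 223354_x_at, which was higher (0.13).

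The mitophagy genes PINK1, BNIP3L and FUNDC1 gave no call in either series. PINK1, the kinase that marks damaged mitochondria, had log2 fold changes of 0.17 and 0.26 in DN-POLG cells and of 0.21 and 0.19 in AOX/NDI1 cells for 209019_s_at and 209018_s_at at day 9. The brightest BNIP3L probe set, 221478_at, had signals of 3139, 3410.4 and 3244 at day 0 and 3751, 4325 and 4488 at day 9 in AOX/NDI1 cells, with no overlap. Its log2 fold change was 0.36 there (95% interval -0.07 to 0.78, adjusted p = 0.281) and -0.03 in DN-POLG cells. FUNDC1 was the steadiest of the brightest probe sets: the highest and lowest of the 6 HEK293 group means were a log2 of 0.26 apart. For MFN2 they were 1.22 apart, and 0.66 without replicate 1 of DN-POLG day 6.

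**Figure D3:**
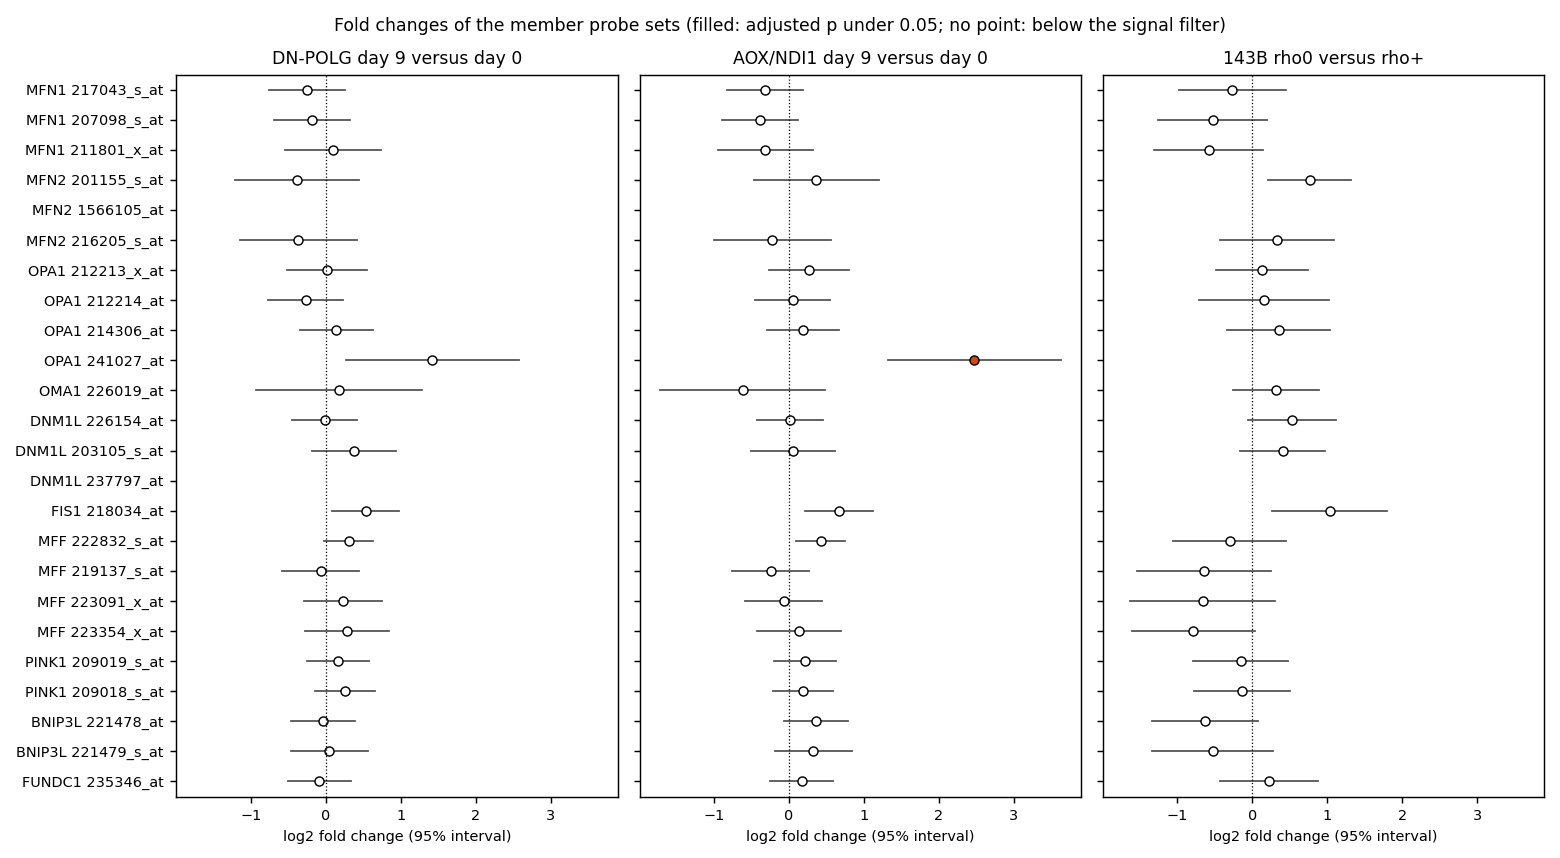
Log2 fold change with its 95% interval (limma) for each tested probe set of the 10 genes in 3 comparisons; a filled dot marks an adjusted p under 0.05 and a probe set below the signal filter has no dot. OPA1 241027_at at 2.47 in AOX/NDI1 cells is the only filled dot, and the intervals of FIS1 lie above 0 in all 3 comparisons.

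Earlier in the time course there was less to see. At day 3 against day 0 none of the 10 genes passed, as 0% of all genes did, and at an unadjusted p under 0.05 the counts were 0 of the 10 and 594 of 12104 in limma. At day 6 against day 0 none of the 10 passed, against 2.45% of all genes, and 1 of the 10, OPA1, was past an unadjusted 0.05 through 214306_at (log2 fold change 0.64, adjusted p = 0.179), beside 2997 of 12104 genes. Several day 6 values rested on the array with the high ACTB ratio. The MFN2 probe set 201155_s_at had day 6 signals of 5926, 2225 and 1508, and its log2 fold change from day 0 was 0.63 with that array and 0.07 without it. The MFN1 probe set 217043_s_at had day 6 signals of 667, 1304 and 1435, and its change was -0.31 with the array and 0.03 without. None of the 10 passed at day 6 without it either. Against day 3, none passed at day 6 (4.35% of all genes), and none passed between days 6 and 9 (0.554% of all genes).

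Whether AOX and NDI1 altered the response was tested directly. The difference between the day 9 responses of AOX/NDI1 and DN-POLG cells passed for none of the 10 genes, as for 0% of all genes in limma, with 742 of 12104 genes at an unadjusted p under 0.05 and 0 of the 10. The difference was 0.13 for FIS1 (95% interval -0.50 to 0.77), 1.05 for OPA1 241027_at (-0.58 to 2.69) and 0.12 for MFF 222832_s_at (-0.34 to 0.58). These intervals are wide, so responses of unequal size were not shown and were not excluded. Uninduced AOX/NDI1 and DN-POLG cells did not differ in any of the 10 genes by the test, which 0.00826% of all genes passed, and neither did the 2 series at day 9 (also 0.00826%). The largest difference at day 0 was that of OMA1, 0.97 higher in AOX/NDI1 cells on the log2 scale (adjusted p = 0.906), which rests on the 272 of 1 DN-POLG culture.

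In 143B cells with no mtDNA none of the 10 genes passed against rho+ cells, where 11.4% of all 11433 genes did. Of the 10, 2 (FIS1 and MFN2) were past an unadjusted p of 0.05, beside 4268 of all genes. FIS1 had signals of 259.9, 195 and 138 in rho+ and 312, 345 and 553 in rho0 cells, which did not overlap, and it was 1.03 higher on the log2 scale (95% interval 0.27 to 1.79, adjusted p = 0.0948). MFN2 201155_s_at had signals of 907, 741 and 948 in rho+ and 1619, 1539 and 1250.1 in rho0 cells, also apart, and was 0.76 higher on the log2 scale (95% interval 0.21 to 1.31, adjusted p = 0.0893). The second MFN2 probe set overlapped between the lines, with a change of 0.33.

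The other members leaned either way in rho0 cells without passing. The 4 MFF probe sets had log2 fold changes of -0.79 to -0.30, the 3 of MFN1 -0.58 to -0.27 and the 2 of BNIP3L -0.63 and -0.53, and each of these overlapped between rho+ and rho0 cells. With arrays set to one median MFF 222832_s_at went from -0.30 to 0.00 and MFN1 217043_s_at from -0.27 to 0.04, so no direction can be given for them. DNM1L 226154_at was apart, with signals of 1800.0, 1877 and 2233 in rho+ and 2468, 2549 and 3609.9 in rho0 cells and a change of 0.53 (95% interval -0.05 to 1.11, adjusted p = 0.221). The calls turned on replicate 3 of rho0. Without it 4 genes passed, with log2 fold changes of -0.93 for BNIP3L 221478_at, -1.10 for MFF 223354_x_at, -0.84 for MFN1 207098_s_at and 0.88 for MFN2 201155_s_at, and 3979 genes passed in all against 1304. The ACTB ratio was 10.4 to 17.1 in rho+ and 5.53 to 8.12 in rho0 cells, and it cannot be told apart from the line.

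The widest differences among the members tested lay between the lines. Between 143B rho+ and DN-POLG day 0 cells 9 of the 10 genes passed, all but OMA1, beside 79.0% of all genes, so that passing says little of these genes in particular. The median log2 difference was -0.76 over the 22 member probe sets tested and -0.13 over all 23163. Of the 22, 8 had all 18 HEK293 arrays above all 6 arrays of 143B cells, against 21.6% of all probe sets, and 0 had them all below, against 17.6%. The 8 belonged to FIS1, FUNDC1, PINK1, MFN1 (2 probe sets) and MFF (3 probe sets). The RNA of the lines also differed in the ACTB ratio, with no overlap apart from the single DN-POLG day 6 array.

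FIS1 differed most, 30.0-fold lower in 143B rho+ than in DN-POLG day 0 cells (log2 -4.91, standard error 0.26, adjusted p = 6.64e-12). Its signal ran from 3739 to 8999.8 with a median of 6375 over the 18 HEK293 arrays and from 138 to 553 over the 6 arrays of 143B cells. FUNDC1 was 9.24-fold lower (log2 -3.21, standard error 0.23, adjusted p = 3.03e-10), with 1607 to 2622 and a median of 2235 in HEK293 against 209, 254 and 260.4 in rho+ and 215, 260.0 and 392 in rho0 cells. Within HEK293 the DN-POLG day 6 array with the high ACTB ratio had a FIS1 signal of 6805, above the HEK293 median, and a FUNDC1 signal of 1607, the lowest of the 18. That is a single array, and the part of the ratio in the differences between the lines was not tested. Both genes passed in all 35 other settings, FIS1 with -5.41 to -4.63 and FUNDC1 with -3.71 to -3.05. Among these settings, the replicate block compared the fitted level of a single replicate of each line, not group means.

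The 170 bases before the RefSeq start of these 2 genes (GRCh38.p14) are shown because they carry the 2 widest differences. Both lie on the minus strand, FIS1 at chr7:101245082-101245251 and FUNDC1 at chrX:44542860-44543029, and both are printed 5′ to 3′ along the gene. Capitals mark TGCGCA, the core of the NRF1 motif, and CCGGAAG, a motif of the ETS factor GABP, both linked to nuclear genes of mitochondria.
FIS1: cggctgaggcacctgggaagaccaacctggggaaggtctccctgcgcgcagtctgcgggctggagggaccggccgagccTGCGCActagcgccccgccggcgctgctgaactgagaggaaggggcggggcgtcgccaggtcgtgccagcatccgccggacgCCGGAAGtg
FUNDC1: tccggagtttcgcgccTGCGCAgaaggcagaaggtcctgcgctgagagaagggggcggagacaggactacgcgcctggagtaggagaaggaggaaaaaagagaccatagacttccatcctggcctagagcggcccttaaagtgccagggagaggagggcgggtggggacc
Over the 250 bases before the start and on both strands, TGCGCA was in 6 of the 8 members with an entry in the RefSeq promoter table (DNM1L, FIS1, FUNDC1, MFF, OMA1 and OPA1) and in 6.89% of all 35116 promoters. CCGGAAG was in 2 (FIS1 and MFN1) and in 8.52% of all. The YY1 motif AAGATGGCG was in 0 of the 8 and in 0.652% of all, and ACGTG, the core of the hypoxia response element, was in MFF alone and in 18.5% of all. Members were counted by gene symbol and the background by promoter entry, whether or not its gene was tested here, so the shares are not of like units. None of these motifs overlaps another among the printed capitals, and a match is a description of the letters.

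Where a gene had several probe sets, the lines could differ in opposite directions. The PINK1 probe set 209018_s_at had signals of 1110, 1425 and 1411 in DN-POLG day 0 cells and of 409.8, 369 and 250.1 in 143B rho+ cells, which is 3.89-fold lower (log2 -1.96, standard error 0.22, adjusted p = 1.40e-07). The other, 209019_s_at, had 1217, 1368 and 1418 in DN-POLG day 0 cells and 1559.9, 2741 and 2410.5 in rho+ cells, a 1.63-fold higher value (log2 0.71, standard error 0.22, adjusted p = 0.00775). The pairs of groups did not overlap for either. No single direction between the lines can therefore be given for PINK1.

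MFN1 was split in the same way. Its probe sets 217043_s_at and 207098_s_at were lower in 143B rho+ than in DN-POLG day 0 cells by a log2 of -1.48 (adjusted p = 5.78e-05) and -0.78 (adjusted p = 0.0157), and 211801_x_at was higher by 1.00 (adjusted p = 0.00871). OPA1 was lower through 212213_x_at alone (-0.71, adjusted p = 0.0201), with differences of -0.29 to 0.19 for its other 3. DNM1L was lower through both tested probe sets, by a log2 of -1.28 and -1.19, and MFN2 through both, by -1.02 and -0.90. MFF was lower through 3 of 4 probe sets, by -1.74 to -0.74, while BNIP3L was higher through 221479_s_at (0.71, adjusted p = 0.0366) and not through 221478_at (0.19).

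The wider machinery was read from a list of 65 further genes, of which 62 had a probe set on the array and 60 were tested in HEK293 cells. At day 9 in DN-POLG cells 5 of the 60 passed, 2 higher and 3 lower, beside 13.1% of all genes. The largest were TRAK2, an adaptor of mitochondrial transport, MTFR2, a fission regulator, and DNM2, a dynamin of membrane scission. TRAK2 202125_s_at fell by 1.71 on the log2 scale (standard error 0.38, mean signal 177 at day 9 against 605 at day 0, adjusted p = 0.0102), and its other probe set fell by 1.58. DNM2 fell by 1.65 through 1555895_at (mean signal 50.2 at day 9 against 164 at day 0, adjusted p = 0.0386), while its other probe set gave 0.03. MTFR2 rose by 1.44 through 234945_at (mean signal 127 against 53.8, adjusted p = 0.0428), while its brighter probe sets gave -0.48 and -0.48. For both genes the dimmer group lay under the level of 57.2 and the probe set was tested through the groups where it was high, so the size of these changes is uncertain.

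In AOX/NDI1 cells at day 9, 9 of the 60 passed, 6 higher and 3 lower, beside 18.1% of all genes. INF2, a formin that drives actin at fission sites, rose by 1.82 (signal 986 ± 56.0 against 280.3 ± 42.1, mean ± SD, n = 3, adjusted p = 0.00447), and its second probe set gave 0.15. TRAK2 202125_s_at fell by 1.77 (adjusted p = 0.00591), close to its change in DN-POLG cells. SQSTM1, the autophagy adaptor p62, rose by 1.60 through 244804_at (adjusted p = 0.0380), and its brightest probe set 201471_s_at gave 0.61 (adjusted p = 0.107). By role, none of the 60 in membrane fusion or the cristae complex MICOS passed at day 9 against day 0 in either series. The same held for the ubiquitin branch of mitophagy and its outer membrane receptors. Each of these roles had 3 to 8 tested genes, so 0 calls say little.

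At day 9 against day 3 in DN-POLG cells 8 of the 60 passed, 4 in each direction, beside 17.2% of all genes. These 8 genes passed through 9 probe sets in all, so most passed through 1 only. Among the 8 genes were INF2 (2.13 on the log2 scale, adjusted p = 0.00164), TRAK2 (-1.71, adjusted p = 0.00789) and SQSTM1 (1.58 through 244804_at, adjusted p = 0.0427). MIGA1, listed with outer membrane fusion, was also lower, and CHCHD6 of the MICOS complex was higher. At day 6 against day 3, 2 of the 60 passed, beside 4.35% of all genes. INF2 was 2.07 higher (adjusted p = 0.0110) and BCL2L13, a mitophagy receptor, fell by 1.04 through 217955_at (adjusted p = 0.0281). Each passed through 1 probe set, and the other tested probe sets of both genes did not pass. None of the 60 passed at day 3 or day 6 against day 0 (0% and 2.45% of all genes), between days 6 and 9 (0.554%), in the difference of responses (0%), or between AOX/NDI1 and DN-POLG cells at either day (0.00826% at each). At an unadjusted p under 0.05 in limma the counts in these 6 comparisons were 2, 13, 4, 4, 2 and 3 of the 60, in the order given.

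In 143B rho0 cells 9 of 59 further genes passed against rho+ cells, 4 higher and 5 lower, beside 11.4% of all genes. OPTN, an autophagy adaptor of damaged mitochondria, fell by 1.75 on the log2 scale (signal 146 ± 52.6 in rho0 against 486 ± 140.4 in rho+ cells, adjusted p = 0.0240). MTFR2 rose by 1.63 through both 228069_at and 234944_s_at (adjusted p = 0.0329 and 0.0192). PHB1, a prohibitin of the inner membrane that steadies OPA1, rose by 1.43 (signal 3223 ± 226 against 1272 ± 558, adjusted p = 0.0385), and its second probe set gave 0.46 (adjusted p = 0.345). The 3 autophagy adaptors and kinases that passed, OPTN, SQSTM1 and ULK1, were all lower in rho0 cells. In that group 9 others did not pass. The brighter OPTN probe set 202074_s_at did not pass (-1.06, adjusted p = 0.0745). SQSTM1 passed through 213112_s_at (-1.37), while its other probe sets ran from -0.67 for the brightest, 201471_s_at, to 0.24 without passing. The ULK1 mean was 67.7 in rho0 cells, under the level of 83.3 used for 143B arrays, so the size of its change is uncertain. The 9 others leaned either way, from -1.23 for GABARAPL1 208869_s_at to 0.88 for TBK1 (adjusted p = 0.227 and 0.0548).

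**Figure D4:**
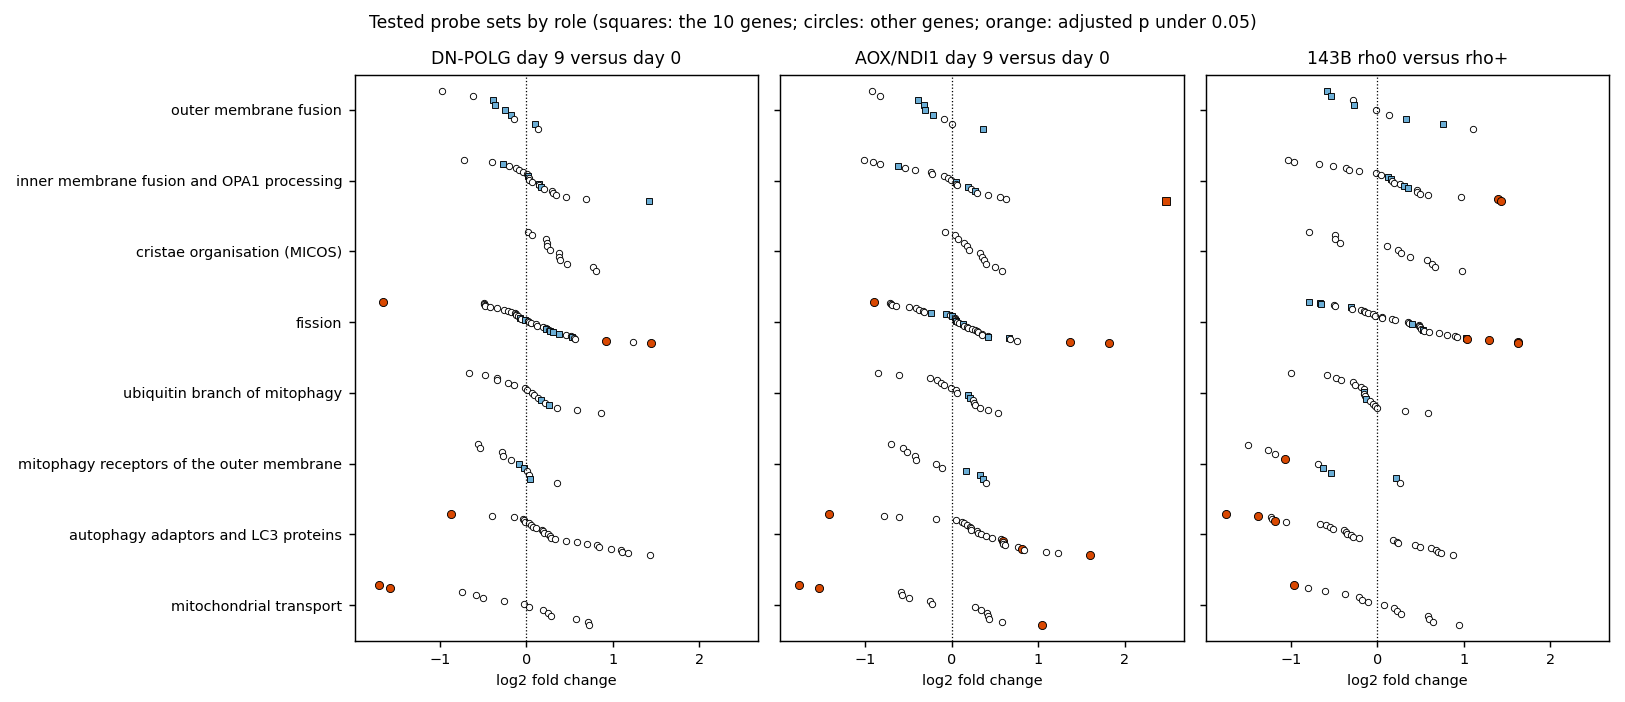
Log2 fold change of every tested probe set of the 10 genes (squares) and of the wider list (circles) by role in 3 comparisons; orange marks an adjusted p under 0.05. TRAK2 lies at the low end of mitochondrial transport in both HEK293 series, and the cristae genes have no orange mark in any of the 3.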

How the data were processed

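RNA of 24 cultures was hybridised to Affymetrix HG-U133 Plus 2.0 arrays. The authors deposited MAS5 signal intensities on a linear scale, made in Expression Console. The outer 2% left out, each array averaged about 500 units, so these intensities were scaled to a common mean before deposit. Log2 was taken with nothing added. The number of arrays limits the precision.

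Probe sets with 1 gene symbol were tested where their mean log2 signal reached the median of that line's arrays (signal 57.2 in HEK293, 83.3 in 143B). This left 23132 probe sets of 12104 genes in HEK293 and 22786 of 11433 in 143B. limma 3.58.1 (R 4.3.3) fitted 1 mean per group, in one model for the 18 HEK293 arrays and in another for the 6 from 143B. p-values were adjusted by Benjamini-Hochberg over all tested probe sets, threshold 0.05. The comparison of 143B rho+ with DN-POLG day 0 used a model of all 24 arrays. It, the pairs of later DN-POLG days and AOX/NDI1 against DN-POLG at day 9 were added after seeing the data. Scripts were checked first on simulated arrays.

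The 10 genes, the wider list and the marker lists were chosen with earlier results of these data known. The brightest probe set of each of the 10 genes, and others that passed or disagreed, are named. In each comparison the 3 further genes with the largest change among those that passed are named. Likeness was Pearson's r over 18 arrays. Promoter letters were read from a RefSeq table (GRCh38.p14), which has no entry used here for PINK1 and BNIP3L.

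According to the study's design scheme a culture round came from one starter culture. Same-numbered cultures of one cell line were therefore treated as pairs in a further fit. The correlation of their deviations from the group means was 0.32 to 0.51 for DN-POLG day 0 with day 3, 0.17 to 0.21 with day 6, and -0.32 to 0.04 with day 9. For AOX/NDI1 day 0 with day 9 it was -0.04 to 0.07. Besides 11 alternative settings, every fit was repeated without each of its arrays.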

Additional observations from a re-analysis of the deposited data

How the results depend on the processing

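The calls of the 10 genes rested on few probe sets and moved with the way the spread was estimated. For DN-POLG day 9 against day 0, where none passed, 2 genes passed with array weights (FIS1 and PINK1) and 1 with the methods' ANOVA (MFF). For AOX/NDI1 day 9 against day 0, where 1 passed, 2 passed (FIS1 and OPA1) with arrays set to one median, with log2(signal + 32), without probe sets marked _s_at or _x_at, or with probe sets averaged per gene. In the same comparison 5 passed with array weights, 4 with the arrays of the groups compared only, 3 with the methods' ANOVA, and 1 to 3 with an array left out. Array weights also gave 1 gene for AOX/NDI1 against DN-POLG at day 0 (MFN1), 1 for DN-POLG day 6 against day 3 (FIS1), and 5 for day 9 against day 3, where the ANOVA gave 2 and leaving out an array 0 or 1. Over all genes the other settings called 1166 to 6642 for AOX/NDI1 day 9 against day 0 (2188 as reported), 294 to 4221 for DN-POLG day 9 against day 0 (1591), 1 to 872 for day 6 against day 0 (297), 1145 to 5586 for day 9 against day 3 (2081), 2 to 2243 for day 6 against day 3 (527), 0 to 125 for day 9 against day 6 (67), 89 to 5451 for 143B rho0 against rho+ (1304) and 6099 to 12495 for 143B rho+ against DN-POLG day 0 (9399), and 0 to 195, 0 to 34, 0 to 942 and 0 to 114 for DN-POLG day 3 against day 0, the difference of responses, and AOX/NDI1 against DN-POLG at days 0 and 9 (0, 0, 1 and 1). The highest count came from array weights in all but DN-POLG day 9 against day 6 and the line comparison. For 143B rho0 against rho+, where none passed, 1 passed with quantile normalization (FIS1), 2 with one median (FIS1 and MFN2), 5 with array weights, and 0 to 4 with an array left out. Between 143B rho+ and DN-POLG day 0 cells 9 passed, and 3 without probe sets marked _s_at or _x_at (DNM1L, FIS1 and FUNDC1), when fewer probe sets are tested. PINK1 reversed between these lines when its probe sets were averaged, to -0.63 from 0.71 for 209019_s_at. OPA1 241027_at passed at day 9 in AOX/NDI1 cells in all 27 other settings that tested it (log2 1.52 to 2.85). These settings reuse the same arrays, and its AOX/NDI1 day 0 signals lay under the filter level. They are therefore not independent support for that call, which no brighter OPA1 probe set shared in the reported fit. With a replicate block 1 gene passed for AOX/NDI1 day 9 against day 0, 1 for DN-POLG day 9 against day 3, 6 between 143B rho+ and DN-POLG day 0 cells and 0 in each other comparison. The block was set within DN-POLG, AOX/NDI1 and 143B cells, so between them that fit compared the fitted level of a single replicate of each. The 6, and the 0 for AOX/NDI1 against DN-POLG cells at either day, are therefore not paired tests of group means. For 143B cells nothing says that the numbers pair samples, and there the block left 556 of 1304 genes called. Setting arrays to one median moved the median of all genes by over 0.1 in rho0 against rho+ (to 0.26 from -0.05) and in AOX/NDI1 day 9 against day 0 (to 0.10 from -0.04), and both PINK1 probe sets changed sign with it in the former, without a call. The causes were not tested.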

Other observations

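Of 60 further genes of the wider list, 50 passed between 143B rho+ and DN-POLG day 0 cells, 6 higher, 40 lower and 4 with probe sets in both directions, beside 79.0% of all genes. The median size of the log2 difference was 0.94 over their probe sets and 1.16 over all probe sets. MICOS13, a subunit of the MICOS complex at crista junctions, was lower by a log2 of -4.58 (signal 189 in 143B rho+ against 4558 in DN-POLG day 0 cells, adjusted p = 2.44e-11 in limma). APOO, a further MICOS subunit, was lower by -3.93 (226 against 3457, adjusted p = 8.96e-09), and NLRX1, listed with the mitophagy receptors, was lower by -1.36 through 219680_at (235 against 609, adjusted p = 0.000254). Its other probe set, 1553695_a_at, had a mean signal of 27.1 in rho+ cells, under the level of 83.3 used for 143B arrays, against 245 in DN-POLG day 0 cells (adjusted p = 1.72e-05), so its fitted difference of -3.69 has no certain size. TRAK2, which fell at day 9 in both HEK293 series, was higher in 143B rho+ cells by 2.51 and 3.15 through its 2 probe sets (adjusted p = 8.42e-06 and 2.29e-06) and had log2 changes of -0.60 and -0.10 in rho0 against rho+ cells. The ACTB ratio and the line cannot be told apart in these values.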
